A study of Mus musculus with 89 samples.

Results

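Lungs of mice challenged with ovalbumin (OVA) were compared with lungs of mice challenged with phosphate-buffered saline (PBS), without any copper oxide (CuO) material in either group. The members are the 8 samples labelled OVA and the 7 labelled PBS, 15 of the 89 samples measured. All were female BALB/c mice of 6 to 8 weeks at the start, and all, PBS controls included, were sensitised by intraperitoneal injections of 50 μg OVA with 2 mg alum on days 1 and 10, so the groups differ in the challenge and not in the sensitisation. After 10 days of recovery the airways received 50 μg OVA or PBS alone on each of 4 consecutive days by oropharyngeal aspiration under isoflurane, and tissue was collected 24 h after the last aspiration. The lungs had been lavaged, and the RNA of 2 lung samples was pooled to make each sample measured, which was labelled with Cy3 or Cy5 and hybridised to 2-colour arrays that other samples of the series shared. Groups were planned with 8 mice, which make 4 pools of 2, so the 8 OVA and 7 PBS pools need more mice than that or share some, and the labels do not tie pools to mice. If pools share mice, the p-values given here are too small. The other samples came from mice that also received a CuO material (the core particle or one modified with COOH, NH3 or PEG), and those given 2.5 or 10 μg (24 challenged with OVA, 26 with PBS) served as a second comparison of OVA with PBS. Both comparisons come from the same fit and share its array and dye terms, so they are not independent of each other.

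In this model of allergic asthma, inhaled allergen meets an immune system already primed to it, and T helper type 2 cells and innate lymphoid cells release IL-4, IL-5 and IL-13. IL-4 and IL-13 act through STAT6 on airway epithelium and macrophages, IL-5 sustains eosinophils, and chemokines of epithelium, fibroblasts and macrophages draw eosinophils, monocytes and lymphocytes into the lung. Goblet cell differentiation, mucus secretion and alternatively activated macrophages are the best known consequences in airway tissue.

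All values below are log2 signals from the dye channel that held the sample, quantile normalised, and levels of single samples are given with the effects of dye, slide and array position removed. Levels were compared between samples of the same gene and never between genes. The median foreground intensity was 66.5 to 189 in OVA controls and 62.5 to 175.5 in PBS controls, and 50.4 to 68.5% and 53.3 to 68.4% of spots were well above background. Controls lay on all 6 slides, 3 PBS and 4 OVA samples on slides 1 to 3 and 4 of each on slides 4 to 6. PBS control 2 and OVA control 3 shared an array. The club cell gene Scgb1a1 was well above background in all 15 samples, at 16.97 to 17.59 (median 17.21) in OVA controls and 17.11 to 17.82 (median 17.32) in PBS controls, as is usual for lung. The tissue is a mixture of cells, and quantile normalised values are relative within a sample. Fewer cells of a type, less RNA per cell and more RNA from other cells therefore cannot be told apart in any result that follows.

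After OVA challenge 851 genes were higher and 344 lower than after PBS challenge, of 22911 genes measured (3.71% and 1.5%, or 5.22% for either direction). A gene was called, and is said below to have risen or fallen, at a Benjamini-Hochberg adjusted p below 0.05 over all genes in limma and an absolute log2 fold change above 0.58. Counts of called list members below are to be read against the shares over all genes given above, and a single called member says little about its list. The rises were larger than the falls. Of the genes that rose, 373 did so by more than 1 log2 unit, 74 by more than 2 and 26 by more than 3, whereas 26 genes fell by more than 1 unit and 1 by more than 2. The median log2 fold change was 0.92 over the genes that rose and -0.69 over those that fell, and -0.02 over all genes. For 818 of the 851 and 286 of the 344, the 8 OVA samples all lay on the same side of the 7 PBS samples, against 9.09% and 8.79% of all genes with OVA all higher and all lower. These counts and shares use values with dye, slide and array position removed. Before that removal, 676 of the 851 and 155 of the 344 were separate, and the share over all genes was not counted on those values. The calls rest on the difference between these same groups, so some separation is built into the choice of genes. As contrasts within the fit to all samples, the comparison called 1075 genes (4.69%) on slides 1 to 3. On slides 4 to 6 it called 466 (2.03%). All but 1 of the 1195 genes had the same sign in both sets of slides. These genes were called from the controls of both sets, so their agreement in sign is largely set by that choice. The share of all genes with the same sign was not counted, so this agreement is no separate test of the calls. The difference of the OVA effect between the sets of slides was called for 0 genes in limma, with 773 at an unadjusted p below 0.05. Without PBS control 2 or OVA control 3, whose array leaves the fit in either case, 883 genes were called, 627 higher and 256 lower.

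**Figure D1:**
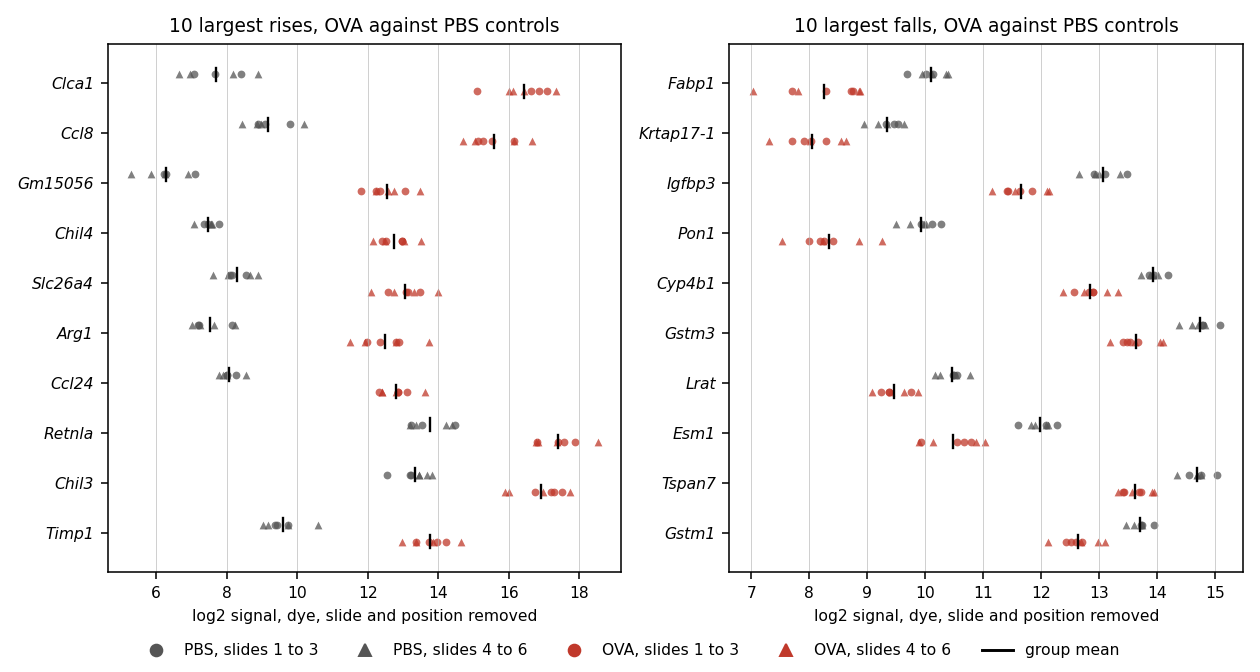
Level of the 10 genes with the largest rise (left) and the 10 with the largest fall (right) among genes whose groups did not overlap, with log2 signal on the horizontal axis after dye, slide and array position were removed. Each point is 1 sample, grey for the 7 PBS controls and red for the 8 OVA controls, circles for slides 1 to 3 and triangles for slides 4 to 6, and the black bar is the group mean. Clca1 lay between 15.10 and 17.35 after OVA and between 6.66 and 8.89 after PBS.

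The largest rises included genes of mucus, chemokines and products of alternatively activated macrophages and epithelium. Clca1, a secreted protein of goblet cells, lay between 15.10 and 17.35 (median 16.53) in the 8 OVA controls and between 6.66 and 8.89 (median 7.69) in the 7 PBS controls. All OVA samples stood far above all PBS samples (log2 fold change 6.87 ± 1.09 (SE), adjusted p = 9.94e-05). With dye, slide and array position as terms in place of the array the difference was 8.75. The fitted changes compare samples through the partners they share arrays with, and so need not equal the difference of the group means. Ccl8, a ligand of CCR8 in mice, lay between 14.72 and 16.67 (median 15.40) in the 8 OVA controls and between 8.45 and 10.20 (median 8.97) in the 7 PBS controls (log2 fold change 5.91 ± 0.48 (SE), adjusted p = 1.14e-08). The 10 genes with the largest rise among those whose groups did not overlap were Clca1, Ccl8, Gm15056 (5.37 ± 0.40), Chil4 (4.40 ± 0.33), Slc26a4 (4.36 ± 0.33), Arg1 (4.26 ± 0.38), Ccl24 (4.25 ± 0.35), Retnla (4.24 ± 0.37), Chil3 (3.94 ± 0.41) and Timp1 (3.87 ± 0.37), each value a log2 fold change with its SE. In exposed mice each of these 10 rose as well, by 2.07 (Timp1) to 6.14 (Clca1).

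RefSeq's promoter table for GRCm38.p6 (250 bases before to 50 after the start of a gene) held 7 of these 10 genes. They were searched for a short motif, TTCNNNGAA, the spacing shared by most STAT factors, and for a long motif of the same letters with 1 more N, the spacing STAT6 prefers. The fixed letters of either motif read the same on both strands, so that 1 search covers both, and the 2 motifs may share letters. The long motif is in 6.95% of all promoters listed and the short one in 8.3%. The 4 promoters that hold a match are printed with the match in capitals, since these genes are among the 10 largest rises and the products of 3 of them (RELMα of Retnla, Ym1 of Chil3 and Ym2 of Chil4) are usual readouts of IL-4 and IL-13 in mouse lung. The promoters of Ccl8, Slc26a4 and Timp1 held neither. Matches were not limited to genes that rose: of the 10 largest falls described further on, Cyp4b1 held the short motif, and Gstm3 and 1 of the 2 listed promoters of Gstm1 held the long one.

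Retnla, chr16:48842359-48842658, plus strand: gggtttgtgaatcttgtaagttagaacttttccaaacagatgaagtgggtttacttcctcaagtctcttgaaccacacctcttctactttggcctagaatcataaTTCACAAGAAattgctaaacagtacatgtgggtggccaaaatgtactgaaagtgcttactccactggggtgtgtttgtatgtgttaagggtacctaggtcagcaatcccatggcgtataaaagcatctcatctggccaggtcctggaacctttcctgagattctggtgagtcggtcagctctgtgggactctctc
Gm15056, chr8:20902407-20902706, minus strand: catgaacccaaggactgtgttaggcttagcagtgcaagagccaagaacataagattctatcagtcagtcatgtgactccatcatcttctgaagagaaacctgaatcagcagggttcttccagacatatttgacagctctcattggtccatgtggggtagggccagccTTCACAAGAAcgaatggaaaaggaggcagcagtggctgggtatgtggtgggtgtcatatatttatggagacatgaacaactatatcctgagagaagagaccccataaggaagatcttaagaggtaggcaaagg
Chil3, chr3:106167515-106167814, minus strand: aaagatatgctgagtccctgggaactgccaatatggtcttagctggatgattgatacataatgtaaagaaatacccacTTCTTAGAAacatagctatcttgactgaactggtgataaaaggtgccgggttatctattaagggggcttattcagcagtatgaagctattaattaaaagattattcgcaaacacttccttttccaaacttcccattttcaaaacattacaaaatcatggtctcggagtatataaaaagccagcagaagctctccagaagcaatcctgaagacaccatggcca
Chil4, chr3:106219430-106219729, minus strand: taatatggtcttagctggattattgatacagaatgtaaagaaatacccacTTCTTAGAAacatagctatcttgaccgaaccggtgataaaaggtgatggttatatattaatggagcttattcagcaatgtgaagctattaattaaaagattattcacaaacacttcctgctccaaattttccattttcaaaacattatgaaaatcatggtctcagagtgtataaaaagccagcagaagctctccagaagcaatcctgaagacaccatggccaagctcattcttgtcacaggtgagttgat

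Retnla and Gm15056 carried the same 10 letters, TTCACAAGAA, from positions -145 and -83, counted from the start of the gene at +1. Chil3 and Chil4, which are paralogs whose probes may share signal, carried TTCTTAGAA from positions -172 and -200. Among promoters of genes that rose, 9.47% held the long motif and 8.03% the short one, against 6.45% and 7.97% of those of all genes measured. These are counts of letters, and binding was not measured.

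Of the type 2 cytokines themselves, few were seen by the arrays. Il4 was the only member of 9 to rise (0 fell, median log2 fold change 0.17), and it lay between 7.15 and 8.48 (median 7.50) in the 8 OVA controls and between 6.18 and 6.79 (median 6.27) in the 7 PBS controls. The groups did not overlap, and the difference was small (log2 fold change 1.05 ± 0.26 (SE), adjusted p = 0.00742). Without the array of PBS control 2 and OVA control 3 it was 0.59, adjusted p = 0.404. Il13 was well above background in 0 of 8 OVA samples and 1 of 7 PBS samples, and lay at 5.78 to 6.14 (median 5.97) in OVA controls and 5.74 to 6.21 (median 5.88) in PBS controls. The arrays say little about a gene at such levels, and by PCR of lung tissue the paper reports higher IL-13 mRNA after OVA challenge. Il5 was well above background in 4 OVA samples and 0 PBS samples (log2 fold change 0.17 ± 0.16 (SE), adjusted p = 0.611). Of 9 epithelial alarmin genes and receptors, 1 rose and 0 fell (median 0.17). Il33, an alarmin of epithelial and endothelial nuclei that activates innate lymphoid cells, lay between 10.19 and 11.05 (median 10.59) in the 8 OVA controls and between 8.79 and 9.30 (median 9.05) in the 7 PBS controls (log2 fold change 1.41 ± 0.17 (SE), adjusted p = 3.47e-06). Its receptor Il1rl1 had a value of 0.43 ± 0.11, below the fold threshold, with all OVA samples above all PBS samples, and was called with dye, slide and array position as terms (0.59) and with the brightest probe of the gene (0.97). Tslp, another alarmin, had -0.53 ± 0.15, with all OVA samples below all PBS samples.

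In the receptor pathway of IL-4 and IL-13, 3 of 11 genes rose and 0 fell (median 0.15). These were the feedback inhibitors Socs1 (log2 fold change 1.498 ± 0.27 (SE), adjusted p = 0.000383), Cish (log2 fold change 0.85 ± 0.16 (SE), adjusted p = 0.000637) and Socs3 (log2 fold change 0.74 ± 0.14 (SE), adjusted p = 0.000836), while none of the receptor chains, the kinases or Stat6 was called. The levels of Socs1 were 9.48 to 10.42 (median 10.14) in OVA controls and 8.09 to 8.81 (median 8.25) in PBS controls, without overlap. Without the array shared by PBS control 2 and OVA control 3, Socs1 (1.16), Cish (0.58) and Socs3 (0.54) kept their sign and were no longer called.

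**Figure D2:**
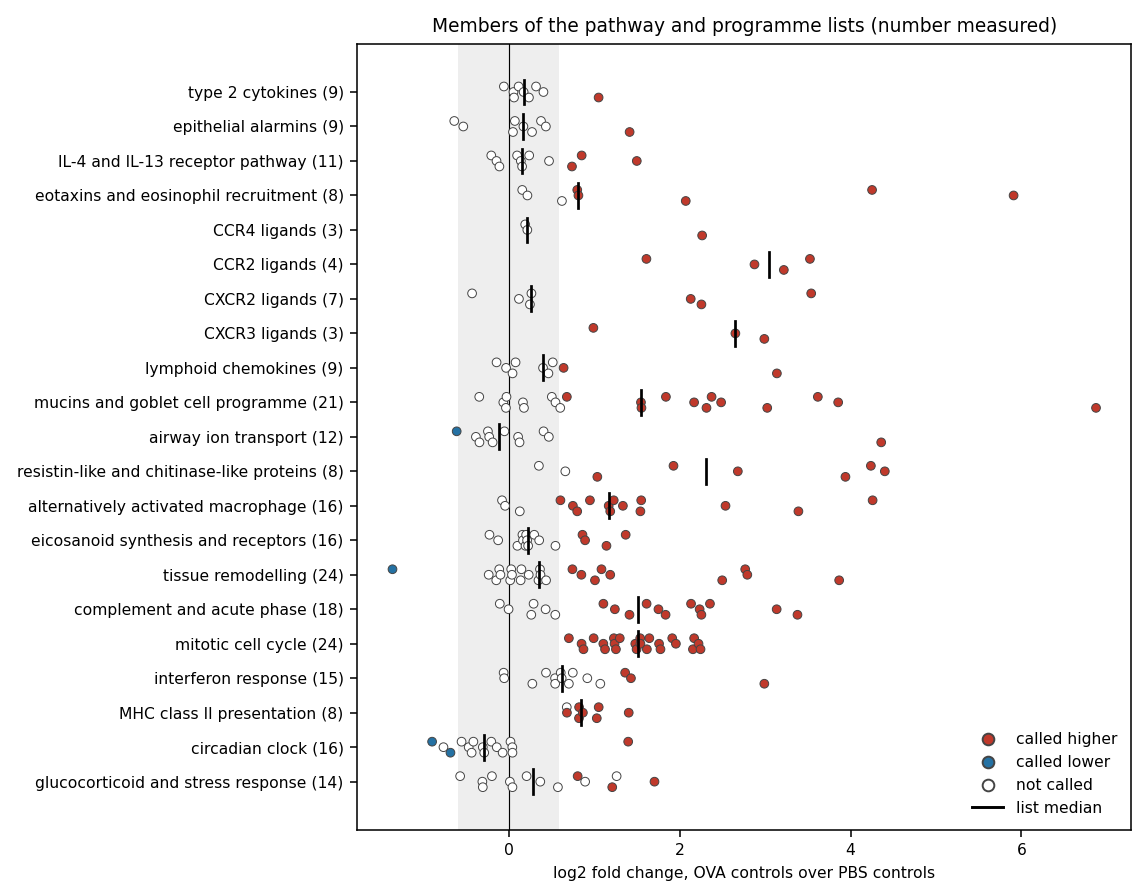
Log2 fold change of OVA over PBS controls (horizontal axis) for each measured member of 21 gene lists, with the number measured in brackets. Red points rose, blue points fell, open points were not called, the black bar is the median of the list and the grey band marks absolute changes up to 0.58. All 24 mitotic genes lie right of the band, and Clca1 is the point farthest right.

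Chemokines rose in several families. In the eotaxin and eosinophil recruitment list 5 of 8 rose (median 0.81), with Ccl24 (eotaxin-2) at 12.33 to 13.62 (median 12.83) in OVA controls and 7.79 to 8.54 (median 8.01) in PBS controls and Ccl11 (eotaxin-1) at 10.48 to 11.26 (median 10.77) in OVA controls and 7.92 to 8.48 (median 8.14) in PBS controls. Neither overlapped between groups, and Ccl11 changed by 2.07 ± 0.21 (adjusted p = 2.72e-07). Ccl1, a CCR8 ligand, was well above background in 7 OVA samples and 1 PBS sample and rose by 0.80 ± 0.11, or 1.26 with dye, slide and array position as terms. The eosinophil receptor Ccr3 had log2 fold change 0.62 ± 0.26 (SE), adjusted p = 0.138, with all OVA samples above all PBS samples, and was called with dye, slide and array position as terms (1.23). Of CCR4 ligands and their receptor, 1 of 3 rose, Ccl17 (TARC), which attracts T helper type 2 cells, at 10.36 to 11.45 (median 11.02) in OVA controls and 8.28 to 9.35 (median 8.52) in PBS controls (log2 fold change 2.26 ± 0.26 (SE), adjusted p = 1.17e-06).

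All 4 genes of the CCR2 list, the axis that brings monocytes from blood, rose (median 3.05). Ccl7 lay between 9.27 and 11.42 (median 10.31) in the 8 OVA controls and between 6.32 and 7.66 (median 6.47) in the 7 PBS controls (log2 fold change 3.52 ± 0.41 (SE), adjusted p = 1.52e-06). Ccl12 rose by 3.22 ± 0.30, Ccl2 by 2.88 ± 0.40 and their receptor Ccr2 by 1.61 ± 0.18, each with no overlap between groups. Of further chemokines that attract monocytes and T cells, Ccl9 rose by 3.24 ± 0.19. The macrophage chemokine Ccl4 rose by 2.13 ± 0.41 and Ccl3 by 1.26 ± 0.30, and for both PBS control 4 lay above the other PBS samples. The Ccl3 samples overlapped between groups, and Ccl3 was not called without the array of PBS control 2 and OVA control 3 (1.28, adjusted p = 0.083). Ccl5 had log2 fold change 0.77 ± 0.30 (SE), adjusted p = 0.1.

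The 3 measured genes of the CXCR3 list, which is tied to interferon and to T helper type 1 and cytotoxic cells, rose (median 2.65). Cxcl10 lay between 8.90 and 10.64 (median 9.82) in the 8 OVA controls and between 6.26 and 7.50 (median 6.77) in the 7 PBS controls (log2 fold change 2.99 ± 0.57 (SE), adjusted p = 0.000855). Cxcl9 rose by 2.65 ± 0.39, and was well above background in 3 of 7 PBS samples and all OVA samples. Cxcr3 itself rose by 0.99 ± 0.19. Of 7 genes of the CXCR2 list, which recruits neutrophils, 3 rose and 0 fell (median 0.26): Cxcl5 (3.54 ± 0.41), Cxcl1 (2.25 ± 0.33) and Cxcl3 (2.13 ± 0.33). Of 9 lymphoid chemokines and receptors 2 rose, with Cxcl13, which draws B cells, at 9.91 to 11.97 (median 10.86) in OVA controls and 7.01 to 8.19 (median 7.41) in PBS controls (log2 fold change 3.14 ± 0.34 (SE), adjusted p = 7.85e-07).

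Of 21 genes of mucins and the goblet cell programme 12 rose and 0 fell (median 1.55). Of the gel-forming mucins, Muc5ac lay between 10.43 and 11.45 (median 10.99) in the 8 OVA controls and between 6.34 and 7.41 (median 6.94) in the 7 PBS controls (log2 fold change 3.02 ± 0.48 (SE), adjusted p = 0.000116), and Muc5b at 12.56 to 13.34 (median 12.85) in OVA controls and 9.55 to 10.77 (median 10.46) in PBS controls (log2 fold change 2.31 ± 0.42 (SE), adjusted p = 0.000531). The groups were separate for both. Agr2, which folds mucins, rose by 3.85 ± 0.43, the lectin Itln1 by 3.62 ± 0.36 and Fcgbp, a mucus protein, by 2.48 ± 0.35. The trefoil peptide Tff2 rose by 2.37 ± 0.52, the airway protein Bpifb1 by 2.17 ± 0.45, Spdef, the transcription factor of goblet cells, by 1.84 ± 0.26, and Ern2, a stress sensor of mucous cells, by 1.55 ± 0.26. Tff1 was well above background in 8 OVA and 0 PBS samples. Its group means, with the floor of each array in place of lower PBS signals, were at least 4.19-fold apart, while the fit through array partners gave a smaller value (log2 fold change 1.55 ± 0.34 (SE), adjusted p = 0.00323), and 2.30 with dye, slide and array position as terms. Tff1 was 1.48, adjusted p = 0.0842 without the array of PBS control 2 and OVA control 3. Foxa3 had log2 fold change 0.50 ± 0.15 (SE), adjusted p = 0.0274, with every OVA sample above every PBS sample, and was called with dye, slide and array position as terms (0.68).

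Among 12 genes of airway ion transport 1 rose and 1 fell (median -0.12). Slc26a4, which encodes pendrin, an anion exchanger of the airway surface, lay between 12.11 and 14.01 (median 13.11) in the 8 OVA controls and between 7.61 and 8.89 (median 8.15) in the 7 PBS controls (log2 fold change 4.36 ± 0.33 (SE), adjusted p = 5.27e-09). Scnn1g, a subunit of the epithelial sodium channel, fell by 0.61 log2 units (10.89 to 11.41 (median 11.08) in OVA controls and 11.29 to 11.93 (median 11.67) in PBS controls), the groups overlapped, and it lost its call in 5 of the 15 fits that left out a sample.

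Products of alternatively activated macrophages and epithelium were among the strongest changes. In the list of resistin-like and chitinase-like proteins 6 of 8 rose and 0 fell (median 2.30). Retnla lay between 16.76 and 18.53 (median 17.39) in the 8 OVA controls and between 13.21 and 14.49 (median 13.55) in the 7 PBS controls (log2 fold change 4.24 ± 0.37 (SE), adjusted p = 2.69e-08), and Chil3 at 15.89 to 17.74 (median 17.08) in OVA controls and 12.55 to 13.83 (median 13.44) in PBS controls (log2 fold change 3.94 ± 0.41 (SE), adjusted p = 3.21e-07). Neither overlapped. Retnlb, the RELMβ of epithelium, rose by 2.68 ± 0.30 and Chia1, acidic chitinase, by 1.93 ± 0.25. Retnlg rose by 1.04 ± 0.28 and was not called without the array of PBS control 2 and OVA control 3 (0.43, adjusted p = 0.619).

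In the list of alternatively activated macrophages 13 of 16 rose and 0 fell (median 1.18). Arg1, which converts arginine to ornithine, lay between 11.49 and 13.75 (median 12.58) in the 8 OVA controls and between 7.02 and 8.25 (median 7.25) in the 7 PBS controls (log2 fold change 4.26 ± 0.38 (SE), adjusted p = 3.02e-08). The lectin Cd209e rose by 3.39 ± 0.38, Pdcd1lg2 (PD-L2) by 2.54 ± 0.26, the transcription factor Egr2 by 1.55 ± 0.22, and the mannose receptor Mrc1 by 1.54 ± 0.17. Alox15, a lipoxygenase, rose by 1.33 ± 0.27, or 0.85, adjusted p = 0.207 without the array of PBS control 2 and OVA control 3. In the eicosanoid list 4 of 16 rose and 0 fell (median 0.22): the lipoxygenase Alox12e (1.37 ± 0.26), the prostacyclin receptor Ptgir (1.14 ± 0.20; 0.96, adjusted p = 0.0513 without that array), the 5-lipoxygenase activating protein Alox5ap (0.89 ± 0.12) and cyclooxygenase 1, Ptgs1 (0.86 ± 0.12).

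**Figure D3:**
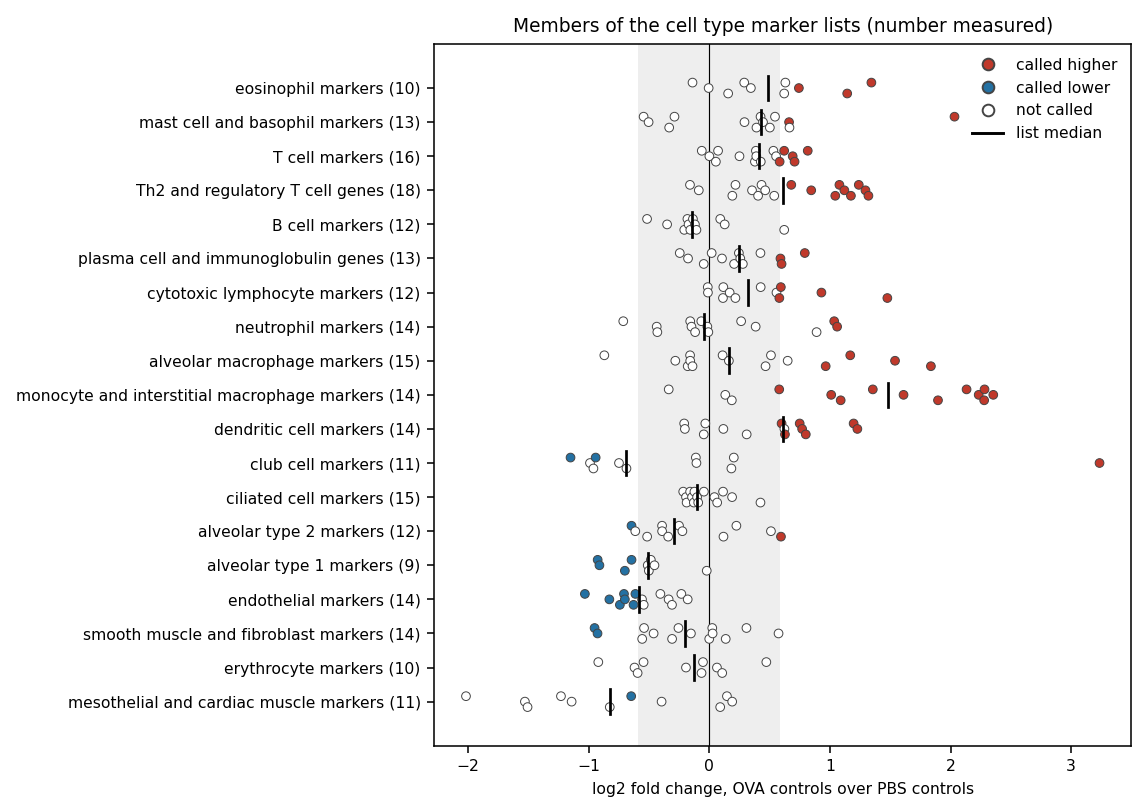
Log2 fold change of OVA over PBS controls (horizontal axis) for each measured member of 19 lists of cell type markers, with the number measured in brackets and symbols as in the plot of pathway lists. Monocyte and interstitial macrophage markers centre at 1.48, and all endothelial and alveolar type 1 markers lie left of 0.

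Markers of monocytes and interstitial macrophages had the highest median of the 19 cell type lists, with 11 of 14 higher, 0 lower and a median of 1.48. The mean level of the list was 11.21 to 11.72 in OVA controls and 9.85 to 10.17 in PBS controls. The complement genes C1qa (2.23 ± 0.20), C1qb (2.35 ± 0.22) and C1qc (2.13 ± 0.22) rose, as did the lipid receptor Trem2 at 11.90 to 12.88 (median 12.32) in OVA controls and 9.55 to 10.24 (median 9.71) in PBS controls (log2 fold change 2.28 ± 0.19 (SE), adjusted p = 1.62e-08), Ms4a7 (2.28 ± 0.31) and the endotoxin co-receptor Cd14 (1.36 ± 0.19). Csf1r, the receptor of macrophage growth factor, was at 0.58 ± 0.16 and lost its call in 8 of 15 fits that left out a sample. Of 15 alveolar macrophage markers 4 rose and 0 fell (median 0.16), among them the protease Ctsk (1.84 ± 0.16) and the proton pump subunit Atp6v0d2 (0.97 ± 0.14). Alveolar macrophages are partly removed by lavage, and the washed fluid was not part of these samples. Of 14 dendritic cell markers 7 rose and 0 fell (median 0.61), among them the integrin Itgax (1.197 ± 0.15), which macrophages share, and Flt3, the receptor of a dendritic cell growth factor (0.77 ± 0.16; 0.58, adjusted p = 0.148 without the array of PBS control 2 and OVA control 3).

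Eosinophil granule genes were among the eosinophil markers that rose. Of 10 markers measured, 3 rose and 0 fell (median 0.48), and the mean level was 9.20 to 9.81 in OVA controls and 8.45 to 8.76 in PBS controls. Prg2, the major basic protein, lay between 7.81 and 8.98 (median 8.37) in the 8 OVA controls and between 5.49 and 6.42 (median 6.29) in the 7 PBS controls (log2 fold change 1.34 ± 0.20 (SE), adjusted p = 5.06e-05). Ear10, a ribonuclease of a family of near-identical genes that probes may share, rose by 1.14 ± 0.21, and Epx, eosinophil peroxidase, by 0.74 ± 0.20. Epx was well above background in 6 OVA and 0 PBS samples and was at least 1.67-fold higher, and the groups overlapped. Without the array of PBS control 2 and OVA control 3, Ear10 was 0.78, adjusted p = 0.128 and Epx 0.58, adjusted p = 0.306. Siglecf, found on eosinophils and alveolar macrophages, had log2 fold change -0.14 ± 0.13 (SE), adjusted p = 0.611, and 0.08 with dye, slide and array position as terms.

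Of 13 mast cell and basophil markers 2 rose and 0 fell (median 0.43). Mcpt8, a protease of basophils, lay between 7.57 and 9.34 (median 8.39) in the 8 OVA controls and between 5.71 and 6.10 (median 5.78) in the 7 PBS controls (log2 fold change 2.03 ± 0.35 (SE), adjusted p = 0.000267), without overlap. Cpa3, a protease of mast cells and basophils, rose by 0.66 ± 0.21, or 1.00 with dye, slide and array position as terms, and lost its call in 5 of 15 fits that left out a sample. Of 14 neutrophil markers 2 rose and 0 fell (median -0.04), Retnlg and Lrg1. Lrg1, which epithelium and liver make as well, rose by 1.06 ± 0.23 (1.12, adjusted p = 0.0513 without the array of PBS control 2 and OVA control 3), whereas the granule protein S100a9 had log2 fold change -0.71 ± 0.41 (SE), adjusted p = 0.33, with every OVA sample below every PBS sample, and was called with dye, slide and array position as terms (-0.70).

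Of 16 T cell markers 5 rose and 0 fell (median 0.41), with Cd3g at 9.13 to 9.64 (median 9.31) in OVA controls and 8.19 to 8.97 (median 8.67) in PBS controls (log2 fold change 0.82 ± 0.19 (SE), adjusted p = 0.00602). In the list of T helper type 2 and regulatory T cell genes 9 of 18 rose and 0 fell (median 0.61). The costimulator Icos lay between 8.03 and 8.89 (median 8.36) in the 8 OVA controls and between 6.77 and 7.12 (median 6.91) in the 7 PBS controls (log2 fold change 1.32 ± 0.22 (SE), adjusted p = 0.000184). The inhibitory receptor Pdcd1 rose by 1.29 ± 0.18, Tnfrsf4 (OX40) by 1.24 ± 0.20, the transcription factor Batf by 1.17 ± 0.09 and Foxp3, which defines regulatory T cells, by 0.68 ± 0.15. Gata3, the transcription factor of T helper type 2 cells that epithelium also expresses, had log2 fold change -0.16 ± 0.15 (SE), adjusted p = 0.613. Of 12 markers of cytotoxic lymphocytes 4 rose and 0 fell (median 0.32), with granzyme B (Gzmb) at 1.48 ± 0.26 and Nkg7 at 0.93 ± 0.23. Without the array of PBS control 2 and OVA control 3, Cd3g (0.42), Foxp3 (0.55), Gzmb (1.06) and Nkg7 (0.54) were not called. Of 12 B cell markers 0 rose and 0 fell in limma, with 2 at an unadjusted p below 0.05 (median -0.15), and of 13 plasma cell and immunoglobulin genes 3 rose (median 0.25).

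Every one of the 24 mitotic cell cycle genes rose, the only list of more than 4 genes with this outcome, with a median of 1.52 against -0.02 over all genes. The mean level of the list was 9.07 to 9.72 in OVA controls and 7.53 to 8.07 in PBS controls. Mki67, a marker of dividing cells, lay between 10.86 and 11.70 (median 11.32) in the 8 OVA controls and between 8.67 and 9.56 (median 8.90) in the 7 PBS controls (log2 fold change 2.22 ± 0.14 (SE), adjusted p = 4.02e-10). Rrm2, which makes deoxyribonucleotides, rose by 2.24 ± 0.16, Birc5 by 2.17 ± 0.16, cyclin A2 (Ccna2) by 2.15 ± 0.17 and topoisomerase Top2a by 1.96 ± 0.14. The smallest change was that of Pcna, the sliding clamp of DNA replication (0.70 ± 0.10), and the mitotic kinase Aurkb rose by 0.87 ± 0.10. Which cells divided cannot be told from tissue RNA.

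Complement and acute phase genes rose for 12 of 18, with 0 lower and a median of 1.51. Saa3, a serum amyloid A of macrophages and epithelium, lay between 13.38 and 14.93 (median 13.84) in the 8 OVA controls and between 10.01 and 12.40 (median 11.26) in the 7 PBS controls (log2 fold change 3.38 ± 0.51 (SE), adjusted p = 5.71e-05). Saa1 rose by 3.14 ± 0.40, the protease inhibitor Serpina3n by 2.25 ± 0.26, and complement C3, already at 14.29 log2 units or more after PBS, by 1.83 ± 0.19. Lcn2, which binds bacterial iron carriers, rose by 1.41 ± 0.33, or 1.35, adjusted p = 0.0986 without the array of PBS control 2 and OVA control 3. Of 8 genes of MHC class II presentation 7 rose (median 0.84), with the protease Ctss at 1.403 ± 0.21, H2-Aa at 1.03 ± 0.18 and H2-Eb1 at 0.68 ± 0.17 (0.46, adjusted p = 0.341 without that array).

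Interferon genes were less even. Of 15 measured, 3 rose and 0 fell (median 0.62), against 3.71% and 1.5% of all genes. All OVA samples lay above all PBS samples for 11 of them, against 9.09% of all genes. Ifng lay between 7.00 and 7.84 (median 7.32) in the 8 OVA controls and between 5.93 and 6.28 (median 6.16) in the 7 PBS controls (log2 fold change 1.36 ± 0.23 (SE), adjusted p = 0.000225; 0.89, adjusted p = 0.0837 without the array of PBS control 2 and OVA control 3). The antiviral gene Oas1a rose by 1.43 ± 0.47 (adjusted p = 0.0497) and lost its call in 13 of the 15 fits that left out a sample. Its change was 0.71 within slides 1 to 3 and 3.04 within slides 4 to 6, and that of Isg15, a ubiquitin-like protein induced by interferon, 0.54 and 2.25 (log2 fold change 1.07 ± 0.47 (SE), adjusted p = 0.158 overall). The list had a median of 0.23 within the first set of slides and 1.51 within the second. The difference between sets of slides was not called for either gene. Isg15 was called with dye, slide and array position as terms (1.43).

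In the tissue remodelling list 9 of 24 genes rose and 1 fell (median 0.36). Timp1, an inhibitor of matrix metalloproteinases, lay between 12.98 and 14.65 (median 13.79) in the 8 OVA controls and between 9.04 and 10.60 (median 9.42) in the 7 PBS controls (log2 fold change 3.87 ± 0.37 (SE), adjusted p = 9.56e-08). The growth factor Igf1 rose by 2.79 ± 0.21, the macrophage elastase Mmp12 by 2.77 ± 0.33, osteopontin (Spp1) by 2.50 ± 0.21 and Mmp13 by 1.08 ± 0.15. The fibrillar collagens Col3a1 and Col1a1 rose by 1.01 ± 0.16 and 0.85 ± 0.21. Igfbp3, which binds insulin-like growth factors, was the member that fell, at 11.15 to 12.13 (median 11.59) in OVA controls and 12.65 to 13.49 (median 12.996) in PBS controls (log2 fold change -1.36 ± 0.18 (SE), adjusted p = 9.95e-06).

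The largest falls included genes of the metabolism of lipids, retinoids and foreign compounds. Fabp1, a fatty acid binding protein, lay between 7.02 and 8.87 (median 8.50) in the 8 OVA controls and between 9.68 and 10.39 (median 10.12) in the 7 PBS controls (log2 fold change -1.64 ± 0.38 (SE), adjusted p = 0.0046). No OVA sample reached the lowest PBS sample. The other genes with the largest falls and no overlap were the keratin-associated protein gene Krtap17-1 (-1.48 ± 0.28), Igfbp3, the esterase Pon1 (-1.29 ± 0.17), the cytochrome Cyp4b1 (-1.18 ± 0.17), the glutathione transferases Gstm3 (-1.15 ± 0.16) and Gstm1 (-1.05 ± 0.14), whose family members are close in sequence, Lrat, which stores retinol as esters (-1.14 ± 0.26), the endothelial proteoglycan Esm1 (-1.11 ± 0.24) and the membrane protein Tspan7 (-1.08 ± 0.19). Without the array of PBS control 2 and OVA control 3, Lrat was -1.21, adjusted p = 0.0636. Before dye, slide and array position were removed the Lrat groups overlapped, with OVA samples up to 9.82 and PBS samples down to 9.28. The largest fall of all was that of Cyp26b1, which degrades retinoic acid, singled out after its values were seen. It lay between 9.01 and 12.39 (median 10.79) in the 8 OVA controls and between 11.50 and 12.78 (median 12.25) in the 7 PBS controls, so that the groups overlapped, and its call (log2 fold change -2.39 ± 0.76 (SE), adjusted p = 0.0405) was lost in 8 of 15 fits that left out a sample. In exposed mice the value of Cyp26b1 was 0.57 ± 0.37.

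Of 14 endothelial markers 0 rose and 7 fell, and all 14 values were below 0 (median -0.58). The mean level of the list was 12.16 to 12.55 in OVA controls and 12.60 to 13.11 in PBS controls, without overlap. Calcrl, a receptor chain of adrenomedullin, lay between 13.24 and 13.69 (median 13.37) in the 8 OVA controls and between 13.79 and 14.58 (median 14.35) in the 7 PBS controls (log2 fold change -1.03 ± 0.20 (SE), adjusted p = 0.000763). Tek, the angiopoietin receptor, fell by 0.83 log2 units with overlapping groups (10.68 to 11.25 (median 10.95) in OVA controls and 10.99 to 12.06 (median 11.74) in PBS controls). Plvap, of fenestrated vessels, changed by -0.74 ± 0.19, and by -0.59 without PBS control 3, where it was not called, and Kdr, a receptor of vascular endothelial growth factor, by -0.71 ± 0.12.

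Of 9 alveolar type 1 markers 0 rose and 4 fell (median -0.51), and the mean level was 12.06 to 12.49 in OVA controls and 12.76 to 13.08 in PBS controls. Clic5 lay between 12.94 and 13.47 (median 13.16) in the 8 OVA controls and between 13.77 and 14.31 (median 14.08) in the 7 PBS controls (log2 fold change -0.92 ± 0.17 (SE), adjusted p = 0.000636). The anchoring protein Akap5 changed by -0.91 ± 0.16, Igfbp2 by -0.70 ± 0.19 and Vegfa, the endothelial growth factor, by -0.64 ± 0.12. Igfbp2 lost its call in 4 of 15 fits that left out a sample, and Vegfa was -0.57 without PBS control 3, under the fold threshold. Alveolar type 2 markers were mixed, with 1 of 12 higher and 1 lower (median -0.30). The surfactant protein gene Sftpb fell (log2 fold change -0.64 ± 0.14 (SE), adjusted p = 0.00206; -0.63, adjusted p = 0.0604 without the array of PBS control 2 and OVA control 3), and Sftpd rose (log2 fold change 0.59 ± 0.13 (SE), adjusted p = 0.00217) but lost its call in 6 of 15 such fits.

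Among 11 club cell markers 1 rose and 2 fell (median -0.69). Reg3g, an antibacterial lectin, lay between 11.94 and 13.91 (median 12.44) in the 8 OVA controls and between 7.96 and 10.55 (median 8.94) in the 7 PBS controls (log2 fold change 3.23 ± 0.80 (SE), adjusted p = 0.00778). The detoxifying enzymes Cyp2f2 (-1.15 ± 0.26) and Gsta3 (-0.94 ± 0.25) fell, Cyp2f2 with overlap at 14.53 to 16.22 (median 15.31) in OVA controls and 15.92 to 16.73 (median 16.50) in PBS controls, while the secretoglobin Scgb1a1 had log2 fold change -0.75 ± 0.26 (SE), adjusted p = 0.0635. Without the array of PBS control 2 and OVA control 3, Reg3g was 3.71, adjusted p = 0.0576, Cyp2f2 -1.13, adjusted p = 0.0868 and Gsta3 -0.86, adjusted p = 0.18. Of 15 ciliated cell markers 0 rose and 0 fell in limma, with 1 at an unadjusted p below 0.05 (median -0.10). Of 14 smooth muscle and fibroblast markers 0 rose and 2 fell (median -0.20), the fibroblast receptor Pdgfra (-0.95 ± 0.16) and the methyltransferase Inmt (-0.93 ± 0.25, called in all but 4 of 15 fits that left out a sample).

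Heart muscle lies next to the lung and may be taken with it. Of 11 mesothelial and cardiac muscle markers 0 rose and 1, the mesothelial gene Upk3b, fell (median -0.82), and the mean level was 9.34 to 10.20 in OVA controls and 9.55 to 10.98 in PBS controls. Myl7, an atrial myosin chain, lay between 10.73 and 12.89 (median 11.30) in the 8 OVA controls and between 11.36 and 14.46 (median 13.59) in the 7 PBS controls (log2 fold change -2.02 ± 0.74 (SE), adjusted p = 0.0825), and PBS control 6 stood apart below the other PBS samples. It was called with dye, slide and array position as terms (-2.02). Its value was -2.71 within slides 1 to 3 and -0.46 within slides 4 to 6. Of 10 erythrocyte markers 0 rose and 0 fell in limma, with 3 at an unadjusted p below 0.05 (median -0.13), with the beta-globin gene Hbb-b1 at -0.92 ± 0.36 (adjusted p = 0.107), which was called with dye, slide and array position as terms (-0.67). The part of heart tissue or blood in the falls was not tested.

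Of 16 clock genes 1 rose and 2 fell (median -0.30). Nfil3, a repressor that interleukins also induce, lay between 9.31 and 10.18 (median 9.67) in the 8 OVA controls and between 7.74 and 8.40 (median 8.08) in the 7 PBS controls (log2 fold change 1.397 ± 0.15 (SE), adjusted p = 4e-07). The output gene Dbp fell (13.01 to 14.32 (median 13.60) in OVA controls and 14.23 to 14.86 (median 14.62) in PBS controls; log2 fold change -0.90 ± 0.26 (SE), adjusted p = 0.0259), overlapped between groups and lost its call in 4 of 15 fits that left out a sample, and Cry2 fell by 0.68 log2 units (-0.69, adjusted p = 0.0659 without the array of PBS control 2 and OVA control 3). The hour at which lungs were taken is not given in the sources used here. In the glucocorticoid and stress list 3 of 14 rose (median 0.29), among them metallothionein Mt2 (1.70 ± 0.20) and heme oxygenase Hmox1 (1.21 ± 0.20), for which PBS control 1 lay at 7.53 and the other PBS samples at 9.25 or more.

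The OVA effect was also measured in mice given 2.5 or 10 μg of a CuO material, which share no sample with the controls. They do share arrays and the fit with the controls, so the agreement below is not between independent estimates. There 852 genes rose and 362 fell (3.72% and 1.58%, or 5.3% for either direction). Of the genes that rose in controls, 614 (72.2%) rose in exposed mice, and of those that fell 198 (57.6%) fell, which is 72.1% and 54.7% of the calls in exposed mice, and 0 were called in opposite directions. By sign alone, 842 of the 851 and 343 of the 344 had the same direction. Of the 24 exposed OVA samples, both CuO 2.5 μg samples that were alone on their arrays add nothing to this fit, nor does 1 such PBS sample. The CuO 2.5 μg with OVA group therefore rests on its replicate 2 alone. Without the array of PBS control 2 and OVA control 3, 534 genes were called in the same direction in both comparisons.

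Among genes of the goblet cell list, the change was 3.62 ± 0.36 in controls and 3.55 ± 0.17 in exposed mice for Itln1, 3.02 ± 0.48 and 2.82 ± 0.23 for Muc5ac, 2.31 ± 0.42 and 1.30 ± 0.21 for Muc5b, and 3.85 ± 0.43 and 2.65 ± 0.21 for Agr2. Among resistin-like and chitinase-like genes it was 4.40 ± 0.33 and 4.32 ± 0.16 for Chil4, 3.94 ± 0.41 and 3.74 ± 0.20 for Chil3, 2.68 ± 0.30 and 2.07 ± 0.15 for Retnlb, and 4.24 ± 0.37 and 2.54 ± 0.18 for Retnla, whose difference of 1.70 ± 0.41 (SE) (adjusted p = 0.102) was the largest of these 8. None of the 8 differences was called. Of 10 eosinophil markers 8 rose in exposed mice (median 1.12) and 3 in controls (median 0.48). Of 13 mast cell and basophil markers 8 rose and 1 fell in exposed mice (median 0.62), and 2 rose and 0 fell in controls (median 0.43). The comparisons differ in their number of samples, so their counts are not alike, and why the medians differ was not tested. Prg2 rose by 2.14 ± 0.10 in exposed mice and by 1.34 ± 0.20 in controls, or 2.21 in controls with dye, slide and array position as terms, and for these markers the difference between comparisons was called for Siglecf alone.

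**Figure D4:**
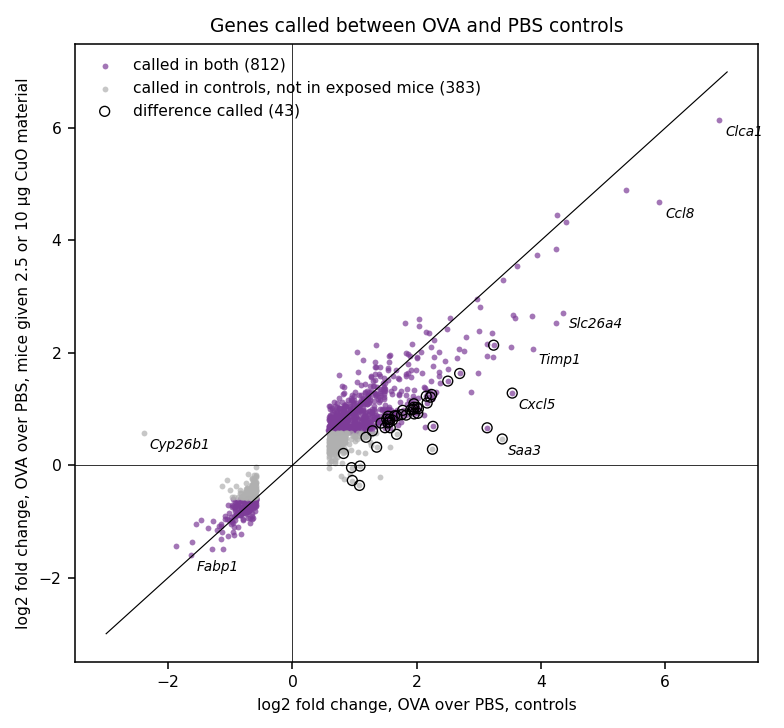
Log2 fold change of OVA over PBS in exposed mice (vertical axis) against that in controls (horizontal axis) for the 1195 genes called in controls, with the line of equal change. Purple points were called in both comparisons, grey points in controls only, and rings mark the 43 of these genes whose difference was itself called, which lie below the line.

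The difference between the OVA effect in controls and in exposed mice was called for 50 genes (0.218%), with 1326 at an unadjusted p below 0.05. As a signed value, the effect was higher in controls for 48 and lower for 2. For some of the 48 the sign was opposite and the size larger in exposed mice, as for Csf2 (0.24 in controls and -0.66 in exposed mice). The largest differences were those of the acute phase genes Saa3, 2.91 ± 0.56 (SE, adjusted p = 0.023), and Saa1, 2.47 ± 0.43 (SE, adjusted p = 0.0121), followed by the chemokines Cxcl5, 2.26 ± 0.45 (SE, adjusted p = 0.0297), Cxcl1, 1.97 ± 0.36 (SE, adjusted p = 0.0145), and Ccl17, 1.57 ± 0.28 (SE, adjusted p = 0.0127). Cd14 differed by 1.03 ± 0.20 (SE, adjusted p = 0.0265) and Ccl9 by 1.103 ± 0.21 (SE, adjusted p = 0.0184). Of the 24 mitotic genes 9 were among the 48, with Birc5 at 1.06 ± 0.18 (SE, adjusted p = 0.0102), Mki67 at 1.01 ± 0.15 (SE, adjusted p = 0.0102), Rrm2 at 0.98 ± 0.17 (SE, adjusted p = 0.0121), Ccna2 at 0.93 ± 0.19 (SE, adjusted p = 0.0364) and Top2a at 0.92 ± 0.15 (SE, adjusted p = 0.0102).

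Saa3 was at 10.01 to 12.40 (median 11.26) in PBS controls and 13.38 to 14.93 (median 13.84) in OVA controls, against 10.69 to 15.90 (median 15.001) in exposed PBS mice and 13.78 to 17.29 (median 15.12) in exposed OVA mice. Mki67 was at 8.67 to 9.56 (median 8.90), 10.86 to 11.70 (median 11.32), 8.87 to 11.27 (median 10.51) and 11.07 to 11.90 (median 11.55) in the same order. In both genes exposed PBS mice spread from the range of PBS controls into or beyond that of OVA controls. The spread differed by material and dose. For Saa3 the exposed PBS samples of CuO PEG 2.5 μg lay at 10.69 to 11.05, and those of core CuO and CuO NH3 at 14.86 to 15.90. For Mki67 the same groups lay at 8.87 to 9.03 and at 10.17 to 11.04. Over the 48 genes, the mean of exposed PBS mice was a median of 1.13 log2 units above that of PBS controls, and the mean of exposed OVA mice 0.16 above that of OVA controls. These genes were chosen by the difference of the OVA effects, so a gap between these values is largely set by that choice. Siglecf, at 0.58 in exposed mice, had the smaller effect in controls, -0.72 ± 0.14 (SE, adjusted p = 0.0255), and Csf2, a growth factor of granulocytes and macrophages, had 0.24 ± 0.16 in controls and -0.66 in exposed mice, 0.89 ± 0.18 (SE, adjusted p = 0.0302). These calls were not stable. Of the 65 fits that left out a sample, those without OVA control 2, PBS control 3, or replicate 1, 2 or 3 of CuO COOH 10 μg with OVA called 0 genes. Those without OVA control 7 or CuO NH3 10 μg with OVA replicate 3 called 22, and those without PBS control 5 or CuO COOH 2.5 μg replicate 1 called 31. The fits without CuO NH3 10 μg replicate 4 or CuO PEG 10 μg replicate 4 called 25, and that without CuO NH3 2.5 μg replicate 3 called 30. In the fit without CuO 2.5 μg with OVA replicate 2, that group cannot be separated from array terms. Its count of 31 is thus no sound estimate, and the fit without CuO COOH 10 μg replicate 2 gave the same counts.

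**Figure D5:**
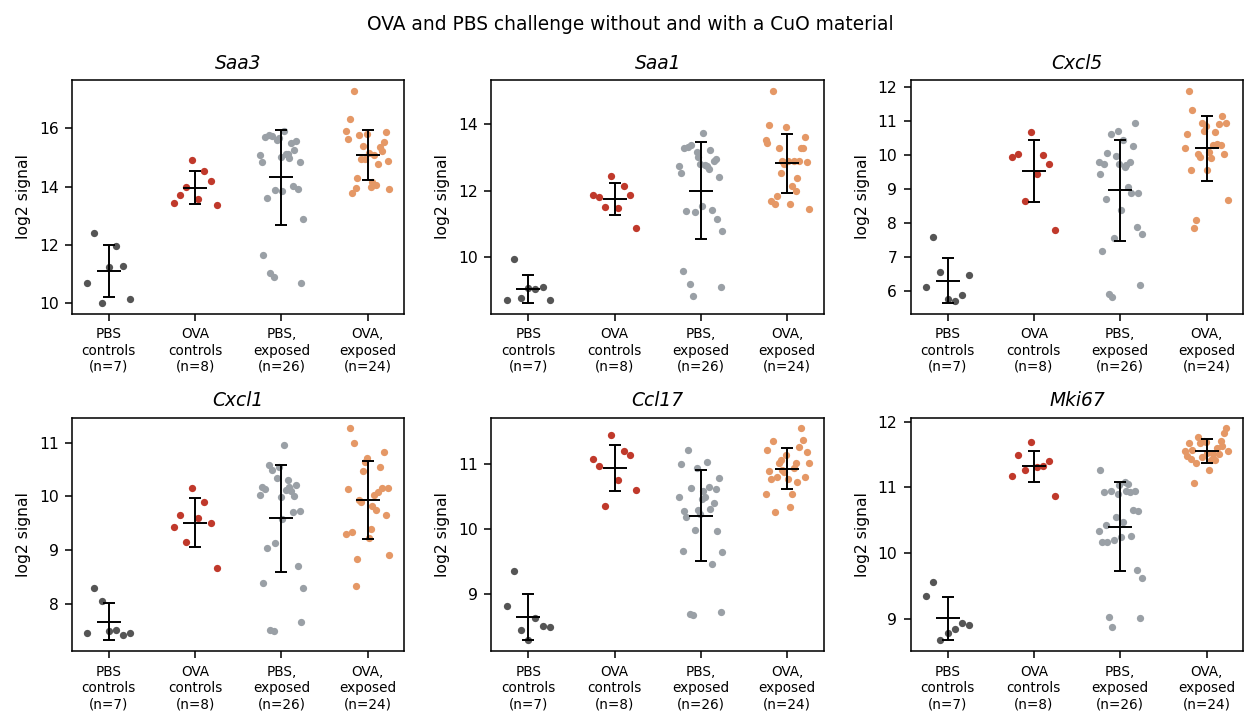
Log2 signal (vertical axis, dye, slide and array position removed) of 6 genes whose OVA effect differed between controls and exposed mice, in PBS controls (n = 7), OVA controls (n = 8), exposed PBS mice (n = 26) and exposed OVA mice (n = 24). Points are samples, and the black bars give the mean and SD. For Saa3 the 7 PBS controls lie between 10.01 and 12.40 and 22 of the 26 exposed PBS mice lie above them.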

How the data were processed

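The 8 OVA and 7 PBS control samples were taken from the deposited labels of 89 samples on 46 arrays. The authors deposited the scanner output of each array with unnormalised foreground and background intensity of each spot (Agilent Feature Extraction), and a table of normalised log2 values per probe, which the authors made, per their methods, by log2 transformation and quantile normalisation. Each sample is a pool of 2 RNA samples, and p-values measure the spread between such pools, taken as independent although the labels do not tie them to mice.

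Each sample was read from its own dye channel as the log2 of the deposited median foreground, with no subtraction of background, followed by quantile normalisation across the samples. Control spots (3671 of 62976) and outlier spots were left out, spots averaged to 56605 probes and 32994 probes with a gene averaged to 22911 genes. One limma model (limma 3.58.1, R 4.3.3) over all groups with dye and array as fixed terms gave each contrast, so that information comes from pairs of samples on an array. The median SE was 0.117 for the controls. The number of arrays limits the precision. The call thresholds are those of the methods (0.05 for the adjusted p and 0.58 for the log2 fold change in either direction). A probe not well above background on every array of a group has only a bound there, formed from normalised log2 means and, for each array, the higher of its lowest signal well above background and the signal of the probe itself.

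Genes named are the 10 largest rises and falls without overlap between groups, and members of 41 lists (481 genes measured), of which 1 list and some genes are not reported here. The members and lists were chosen with earlier results of these data known. The mean level of a list is the mean log2 signal of its members in a sample. The alternatives were normexp background correction (offset 50), loess with Aquantile, dim probes left out (well above background in at least 7 samples), the brightest probe of each gene, the deposited log2 table, dye with slide and array position, a random array block, the 15 controls alone, replicate number as a block, each set of slides alone, and each sample left out.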

Additional observations from a re-analysis of the deposited data

Results flagged for a closer look

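Among 302 pairs of a named gene and a control group, 12 had a sample whose gap to its nearest neighbour was a large part of the range of the group, and chance gives about 5% of groups. PBS control 4 was highest for Ccl4 (7.78, next 7.03), Ccl3 (7.97, next 7.31), Cxcl3 (6.60, next 6.00), Saa1 (9.94, next 9.12) and Mt2 (11.83, next 11.29). PBS control 1 was highest for Cry2 (12.49, next 12.27) and lowest for Hmox1 (7.53, next 9.25). PBS control 7 was lowest for Itln1 (7.43, next 7.90) and Alox15 (6.04, next 6.60), and PBS control 6 for Muc5b (9.55, next 10.26) and Myl7 (11.36, next 13.52). OVA control 3 was lowest for Alox12e (7.16, next 7.53).

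The OVA effect differed, by the test of the difference itself, between controls and exposed mice for 14 named genes. As a signed value it was higher in controls by 2.91 for Saa3, 2.47 for Saa1, 2.26 for Cxcl5, 1.97 for Cxcl1 and 1.57 for Ccl17. It was higher by 1.103 for Ccl9, 1.06 for Birc5, 1.03 for Cd14, 1.01 for Mki67 and 0.98 for Rrm2. It was also higher by 0.93 for Ccna2, 0.92 for Top2a and 0.89 for Csf2 (0.24 against -0.66 in exposed mice), and lower for Siglecf (-0.72). Without OVA control 2 or PBS control 3 none of these differences was called.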

How the results depend on the processing

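The OVA effect in controls called 883 to 1351 genes when a sample was left out, 627 to 922 higher and 243 to 429 lower, fewest higher without PBS control 2 or OVA control 3. In a separate fit to the samples of slides 4 to 6 alone 320 genes were called, 293 higher and 27 lower (91.6% higher, against 71.2% over all slides), and in one to those of slides 1 to 3 alone 1143, 798 higher and 345 lower. The other alternatives called 1096 to 1491 genes, and 0 genes changed direction between calls under any of them. With the replicate number as a block 1342 genes were called. Samples of the same number had correlated deviations for 6 of 7 numbers (0.368 to 0.746) and not for number 4 (-0.151). Dye follows the number and was not removed from these values, so the correlations cannot tell whether the numbers pair the samples. In exposed mice 1131 to 1339 genes were called with a sample left out, and genes called alike in both comparisons numbered 534 to 862. The difference between controls and exposed mice was called for 93 genes with loess and Aquantile, 159 with dye, slide and array position and 159 with a random array block, and for 0 to 72 with a sample left out. That between sets of slides was called for 3 genes with dye, slide and array position and 1 with a random array block, and for 0 to 7 with a sample left out, where leaving out PBS control 5 gave 7. The causes were not tested.

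Values of 151 named genes kept direction and call in 3644 of 3925 refits, 234 lost and 36 gained a call. Reversed values were those of Siglecf (0.079 with dye, slide and array position, 0.068 with a random array block, 0.093 with the 15 controls alone, 0.14 with the replicate block), Csf2 (-0.0089 with the replicate block), Il13 (-0.20 within slides 4 to 6, from -0.022 without PBS control 2 or OVA control 3 to 0.102 without PBS control 5) and Il5 (-0.38 within slides 4 to 6, from -0.17 without PBS control 2 or OVA control 3 to 0.285 without OVA control 7). Of 136 called genes named, 50 were called within slides 4 to 6 alone. Ccr3, Foxa3, Isg15, S100a9, Myl7 and Hbb-b1 gained a call with dye, slide and array position, a random array block, the 15 controls alone and the replicate block, and Il1rl1 with the first 3 of these and the brightest probe. Il13 was well above background in 1 of the 15 controls and Il5 in 4, which limits what can be measured for them.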

Other observations

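Several gene families outside the lists were noticed in the values and are given as counts, with no test. Of 101 cytochrome P450 genes 11 fell and 3 rose, against 1.5% and 3.71% of all genes. The fall was -1.87 ± 0.40 for Cyp2a5 and -1.62 ± 0.33 for Cyp2a4, near-identical genes whose probes may share signal, and both groups overlapped. Of 21 glutathione S-transferase genes 5 fell and 1 rose, and of 7 flavin-containing monooxygenase genes 3 fell and 0 rose. Aldehyde dehydrogenase genes were even, with 3 of 21 lower and 3 higher. Histone genes of the H1f, H2ac, H2bc, H3c and H4c series rose for 18 of 49 and fell for 0, with a median of 0.37.

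Of 5 Fc gamma receptor genes 2 rose, and 5 rose in exposed mice. Of 22 cathepsin genes 5 rose and 0 fell, and 8 rose in exposed mice. Ms4a genes rose for 4 of 18 and V-ATPase subunit genes for 2 of 23, and 0 of either fell. Over all genes 3.71% rose in controls and 3.72% in exposed mice.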
